A study of Mus musculus with 4 samples.

Results

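The genes described here make the enzymes and carriers that bring hexoses into the cell, split glucose to pyruvate and lactate, and feed the pentose phosphate pathway. The 37 genes were chosen by name from these roles, and each was found as 1 row of the deposited tables, among 47445 gene identifiers in all. RNA was measured in C57BL/6N mouse embryos at the late 2-cell stage, from 8 week-old females. The 2 control libraries are labelled as untreated, whereas the treatment protocol has control embryos injected with a negative-control siRNA at 5 uM, so the sources differ on the controls. The 2 Uqcc3 siRNA libraries come from embryos injected at 8 hpi (the labels' abbreviation) with 5 uM of an siRNA against Uqcc3, which encodes an assembly factor of respiratory complex III, and only embryos of normal morphology were taken. The labels do not state the number of embryos per library, nor that libraries of 1 group came from separate mice or injections, so each p-value reflects only how far these 4 libraries scatter, possibly for technical reasons. The library titles end in different codes in the 2 groups, so if these codes mark a batch, batch and siRNA cannot be told apart. In such bulk samples fewer cells and less RNA per cell cannot be told apart either.

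Glycolysis splits glucose to pyruvate in a chain of cytosolic enzymes, and lactate dehydrogenase interconverts pyruvate and lactate. The pentose phosphate pathway takes glucose 6-phosphate away to make NADPH and ribose. Cleaving mouse embryos are known to live on pyruvate and lactate and to make little use of glucose before compaction. Several steps have isoforms encoded by separate genes, so the RNA shows which isoform's transcript the embryos carry. Which enzyme isoform they hold as protein was not measured.

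The targeted gene, Uqcc3, measured 147 and 211 FPKM without its siRNA against 23.7 and 19.8 FPKM with it, and the groups did not overlap. Its log2 difference was -2.97 (SE 0.63), which did not pass the test over all genes (limma adjusted p = 0.745). FPKM is a fragment count scaled to transcript length and library size. The deposited bounds imply libraries of about 11300000 to 18200000 fragments. The second siRNA library stood apart from the others: its log2 values correlated with theirs, across genes, at 0.624 to 0.651, against 0.872 or more for the closest partner of each other library, and it held 9771 genes at 1 FPKM or more against 11818 to 12202. Rn18s-rs5, a ribosomal RNA gene, reached 14506 FPKM there and 183 to 1023 FPKM in the others. The mitochondrial genome took 28.0% of the summed FPKM in siRNA 1 and 16.6% to 18.0% in the others. The summed FPKM was 682974 and 695428 in the controls and 596011 and 436400 with siRNA, and the part of these differences in the results was not tested. Dppa3, a maternal transcript, stood at 10131, 12086, 8371 and 3004 FPKM in control 1, control 2, siRNA 1 and siRNA 2, the order used for all values that follow. All 12 oocyte and 2-cell markers were above 0 in every library, but they did not move together. Lower in each siRNA library than in either control were 5 (41.7%, against 30.0% of all tested genes): Zscan4d, Zfp352, Obox6, Zp3 and Dppa3. Higher were 3 of the 12 (against 8.60% of all tested genes): Bmp15, Nlrp5 and Tle6. Zscan4d stood at 130, 298, 108 and 6.71 FPKM and Tle6 at 5.19, 12.5, 25.99 and 122 FPKM. The 14 cumulus and granulosa markers summed to 8.62 to 21.3 FPKM, mostly from Amhr2 and Tnfaip6, with Amh, Fshr, Star and Nr5a1 at 0 in all 4, and their part in the results was not tested.

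Lactate dehydrogenase was the most abundant step among the members, and Ldhb held nearly all of the summed FPKM of Ldha and Ldhb. Ldhc, which is not a member and not in that sum, stood at 15.9, 17.9, 21.3 and 22.4 FPKM, above Ldha in every library. Ldhb encodes the subunit that prevails in tissues that take up lactate, and Ldha the subunit that prevails where lactate is made. Ldhb stood at 185, 269, 120 and 237 FPKM, at percentile 96.9 or higher among the genes above 0 FPKM of each library. The siRNA values lay on either side of the lower control, so the groups overlapped. They no longer did with the near-identical gene Gm5514 added (251, 334, 147 and 239 FPKM). Ldha stood at 6.47, 3.24, 6.98 and 16.9 FPKM, from about 125, 43.0, 92.8 and 240 fragments. Both siRNA libraries lay above both controls, siRNA 1 by a small margin over control 1. The log2 difference of Ldha was 1.08 (SE 0.97), which did not pass (limma adjusted p = 0.805). Without siRNA 2 it was 0.50. Ldhb made up 96.6%, 98.8%, 94.5% and 93.4% of the summed FPKM of Ldha and Ldhb. The mean share was 97.7% ± 1.55 (SD, n = 2) in controls and 93.9% ± 0.806 (SD, n = 2) with siRNA. The shares did not overlap between groups, with an exact two-sided permutation p of 0.333, the smallest that 2 against 2 can give, and 1 after adjustment over the 25 isoform shares compared.

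The 250 bases before the starts of both genes are shown because the isoforms differ both in level and in these letters. They are from RefSeq on GRCm38.p6, the assembly of mm10: chr6:142507958-142508207 on the minus strand for Ldhb and chr7:46845554-46845803 on the plus strand for Ldha. Capitals mark ACGTG, the core of the hypoxia response element, on either strand.
Ldhb: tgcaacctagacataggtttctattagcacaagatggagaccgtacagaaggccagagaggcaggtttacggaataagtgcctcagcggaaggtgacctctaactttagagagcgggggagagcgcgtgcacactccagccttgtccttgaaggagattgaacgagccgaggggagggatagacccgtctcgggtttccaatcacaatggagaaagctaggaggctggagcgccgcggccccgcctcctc
Ldha: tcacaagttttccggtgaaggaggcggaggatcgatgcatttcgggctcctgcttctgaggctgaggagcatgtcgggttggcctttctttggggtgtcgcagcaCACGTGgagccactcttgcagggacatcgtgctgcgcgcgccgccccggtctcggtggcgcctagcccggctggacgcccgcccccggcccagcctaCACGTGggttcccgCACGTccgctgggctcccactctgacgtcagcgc
Ldha held 5 matches to ACGTG, 4 of which come from 2 copies of the E-box CACGTG, which reads as ACGTG on both strands. Ldhb held no match to either motif, which says only that these letters are not in this window. GCGTG, which the core can also read, was not searched for or marked, and it does stand in the Ldhb window. Of the 35 members with a window, 9 held ACGTG and 3 held CACGTG, against 16.6% and 6.02% of all 32851 windows. The members with ACGTG were Slc2a1, Hk2, Pfkm, Pfkfb3, Pgk1, Pgam1, Ldha, Slc16a1 and Slc16a3. The Ldha window lies inside the span of the gene in GENCODE M21.

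**Figure D1:**
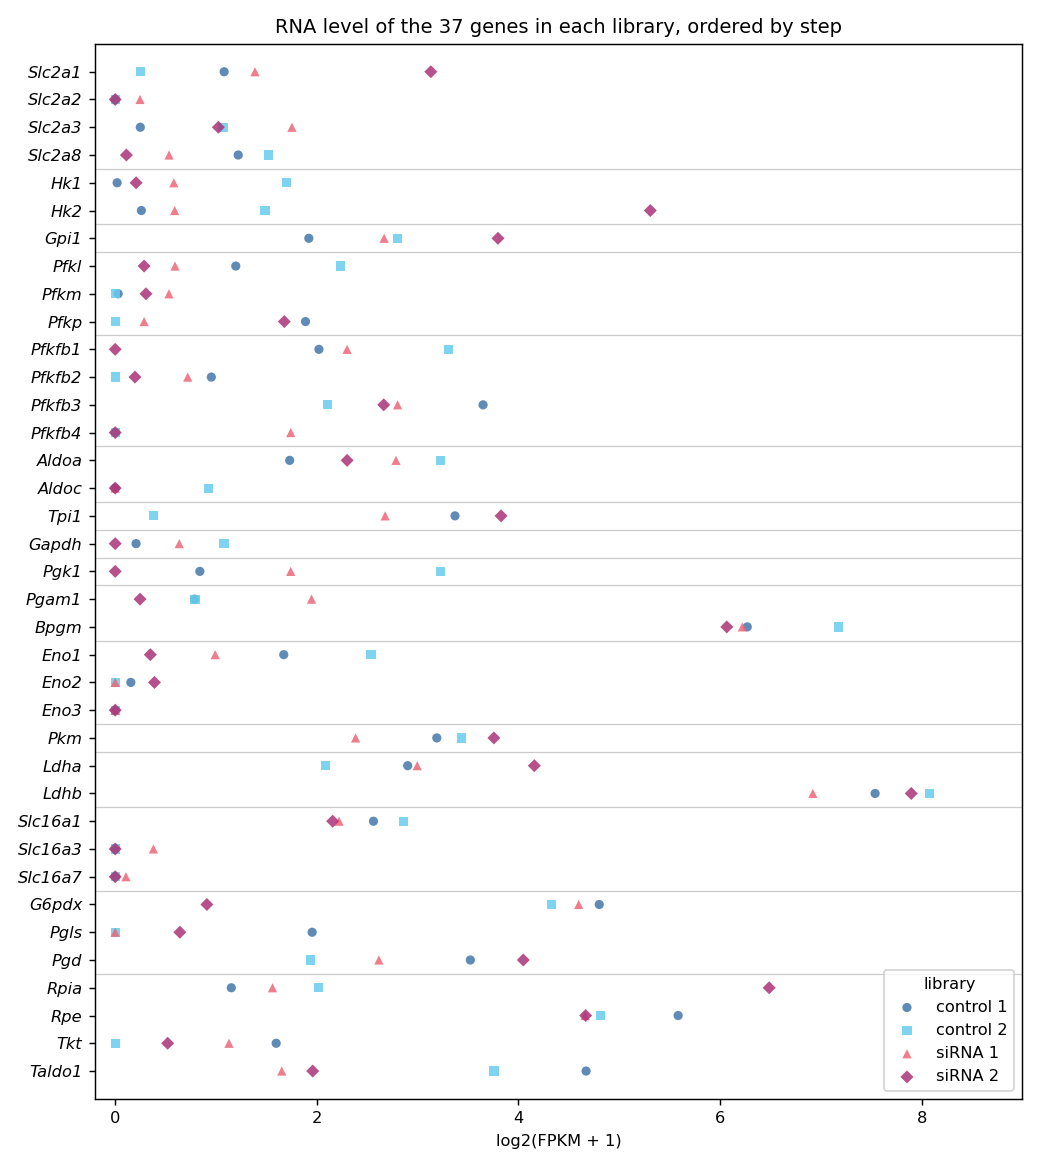
RNA level, log2(FPKM + 1), of each of the 37 genes (rows, grouped by step between the grey lines) in the 4 libraries (symbols). Ldhb and Bpgm sit far to the right in all 4 libraries, most other genes lie under 10 FPKM, and the Hk2, G6pdx and Rpia symbols of siRNA 2 stand away from the other 3. Symbols at 0 lie on top of each other.

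Levels were low in most other steps. Of the 37 members, 12 reached 1 FPKM in every library, 3 reached 10 FPKM in every library (Ldhb, Bpgm and Rpe), and 8 stayed under 1 FPKM in all 4 (Slc2a2, Pfkm, Pfkfb2, Aldoc, Eno2, Eno3, Slc16a3 and Slc16a7). The median member stood at 1.33, 1.87, 1.95 and 0.560 FPKM. Ldhb and Bpgm together held 59.8%, 74.99%, 62.5% and 54.5% of the members' summed FPKM.

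The 4 hexose carriers among the members were scarce. Their summed level was 2.63, 3.16, 4.62 and 8.87 FPKM, with both siRNA libraries above both controls. With 7 further Slc2a genes added it was 3.93, 10.1, 6.03 and 10.7 FPKM, and the groups overlapped. Slc2a1, the carrier of basal glucose uptake in most cells, stood at 1.11, 0.188, 1.62 and 7.76 FPKM, above both controls in both siRNA libraries, with the highest value in siRNA 2. Slc2a3, a high-affinity carrier that appears on the trophectoderm later in development, stood at 0.188, 1.10, 2.37 and 1.03 FPKM, and the groups overlapped. Slc2a8, an intracellular hexose carrier, stood at 1.33, 1.87, 0.448 and 0.0801 FPKM. Its share of the 4 carriers was 50.5%, 59.3%, 9.70% and 0.902%, below both controls in both siRNA libraries (exact two-sided permutation p = 0.333, adjusted p = 1). Slc2a2, the low-affinity carrier of liver and beta cells, was listed at 0 in 3 libraries and at 0.186 FPKM in siRNA 1. The bounds of Slc2a8 imply few fragments, about 8.57, 16.3, 1.35 and 0.0464.

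Hexokinase was low in the controls and in siRNA 1. Hexokinases phosphorylate glucose and so trap it in the cell. Hk2 stood at 0.197, 1.80, 0.506 and 38.6 FPKM, a high value in siRNA 2 alone, from about 203 fragments. Hk1 stood at 0.0135, 2.25, 0.497 and 0.155 FPKM, highest in control 2. The share of Hk2 in the pair was 93.6%, 44.4%, 50.4% and 99.6%, so neither isoform led in all libraries. Gpi1, the isomerase that follows, stood at 2.79, 5.97, 5.35 and 12.9 FPKM, and the groups overlapped.

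Phosphofructokinase, the main control point of glycolysis, summed to 4.01, 3.72, 1.18 and 2.65 FPKM over its 3 genes, lower in both siRNA libraries. Pfkl, the liver-type subunit, stood at 1.29, 3.72, 0.509 and 0.220 FPKM, below both controls with siRNA. Pfkp, the platelet-type subunit, stood at 2.702 FPKM in control 1 and 2.199 in siRNA 2, but near 0 in control 2 and at 0.220 in siRNA 1. Pfkm, the muscle-type subunit, did not exceed 0.447 FPKM in any library. Which subunit led therefore changed within each group: Pfkp in control 1 and siRNA 2, and Pfkl in control 2 and siRNA 1.

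The bifunctional Pfkfb enzymes make and break the metabolite that activates phosphofructokinase, and their RNA exceeded that of phosphofructokinase in each library. They summed to 15.5, 12.2, 12.9 and 5.48 FPKM. Pfkfb3, the isoform with the strongest kinase activity, stood at 11.5, 3.30, 5.97 and 5.34 FPKM, with both siRNA values between the controls. Pfkfb1, the liver and muscle isoform, stood at 3.06, 8.89, 3.93 and 0 FPKM. Pfkfb2 and Pfkfb4, known from heart and testis, stayed at or under 0.937 and 2.34 FPKM.

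**Figure D2:**
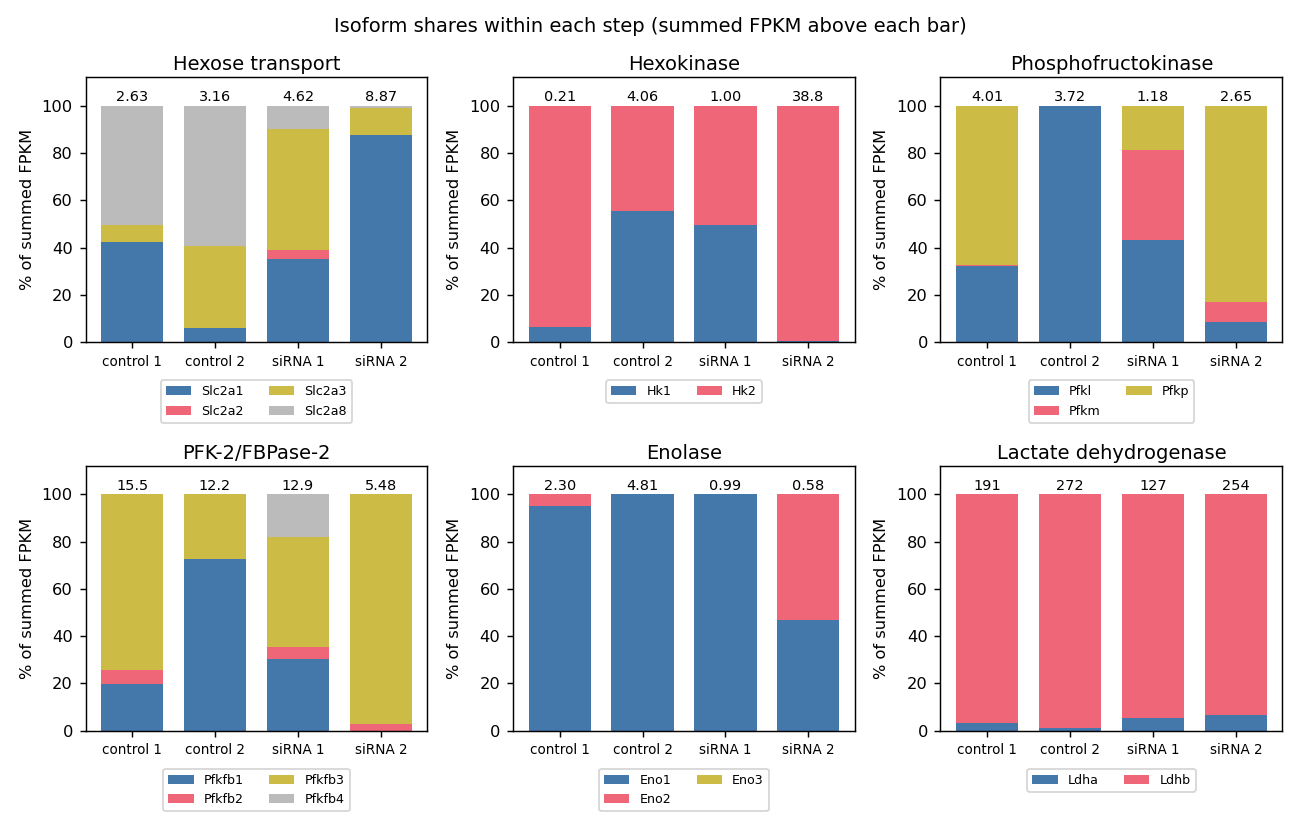
Share of each isoform (stacked colours, % of the summed FPKM of the step) in each library for 6 steps, with the summed FPKM of the step printed above each bar. Ldhb fills over 93% of the sum of Ldha and Ldhb in every library, and Ldhc is not counted in it. The leading hexokinase, phosphofructokinase and Pfkfb isoforms differ between libraries of the same group.

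The lower part of glycolysis showed 1 abundant gene, Bpgm. Bpgm makes the bisphosphoglycerate known from red blood cells and works as a side path beside the mutase. It stood at 76.2, 144, 73.6 and 66.03 FPKM, from about 771 to 1477 fragments. Both siRNA libraries lay below both controls, siRNA 1 by a small margin under control 1. Its log2 difference was -0.58 (SE 0.64), which did not pass (limma adjusted p = 0.834). The 8 blood markers summed to 33.5, 34.5, 29.5 and 9.17 FPKM. Of these Alas2 and Hbb-bs were at 0 in all 4 libraries, Hba-a1 stood at 9.26, 18.8, 9.75 and 0 FPKM, and Hba-a2 at 9.44, 9.76, 6.89 and 0 FPKM. Their part in the Bpgm values was not tested. Pgam1, the mutase of the main path, stood at 0.726, 0.731, 2.86 and 0.186 FPKM, so Bpgm made up 96.3% to 99.7% of the FPKM of the pair. An identical annotated copy of the Pgam1 coding sequence, Pgam1-ps2, stood at 7.504, 3.43, 5.39 and 0 FPKM, and fragments of such copies cannot be told apart.

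The other enzymes of this part varied between libraries of 1 group. Aldoa, the main aldolase, stood at 2.32, 8.37, 5.90 and 3.93 FPKM, and Aldoc, the brain form, was listed at 0 in 3 libraries. Tpi1, the triose isomerase, stood at 9.35, 0.304, 5.40 and 13.2 FPKM, with the controls on both sides of siRNA 1. Pgk1, an ATP-producing kinase, stood at 0.790, 8.38 and 2.34 FPKM and was listed at 0 in siRNA 2. Pkm, the pyruvate kinase of most tissues, stood at 8.13, 9.81, 4.22 and 12.5 FPKM, the siRNA values lying on both sides of the controls. Eno1, the main enolase, stood at 2.19, 4.81, 0.989 and 0.273 FPKM, below both controls in both siRNA libraries. Eno2 and Eno3, the neuronal and muscle enolases, did not exceed 0.310 FPKM and was at 0, respectively.

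Gapdh, the dehydrogenase of this chain, was listed at only 0.154, 1.11, 0.554 and 0 FPKM. GENCODE M21 holds 173 other genes with at least 300 coding bases at 90% identity or more to Gapdh, of which 160 are in the deposited tables. Their summed FPKM was 28.3, 21.6, 16.8 and 1.79, so the Gapdh value alone may not give the level of this step. The highest copy was among the less similar ones: Gm5177 (90.7% identity) at 15.0, 0.0806, 7.34 and 1.51 FPKM. In control 2 it was Gm8529 (92.0% identity), at 7.95 FPKM. How much of the copies' FPKM stems from Gapdh RNA was not tested. The same search found 1 copy of Ldhb, Gm5514 (98.0% identity), at 66.1, 65.0, 26.6 and 1.84 FPKM. With copies added, the log2 difference of the lactate dehydrogenase step was -0.57 (-0.34 without), and Ldhb made up 93.4% to 98.8% of Ldha and Ldhb together. Copies also exist for Gpi1, Aldoa, Tpi1, Pgk1, Pgam1, Eno1, Pkm, Ldha, G6pdx and Taldo1, so these values are uncertain to the extent that fragments were split.

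Of the monocarboxylate carriers, which move lactate and pyruvate across the membrane, Slc16a1 was the only one above 1 FPKM. It stood at 4.91, 6.27, 3.66 and 3.46 FPKM, lower in both siRNA libraries. The log2 difference was -0.52 (SE 0.95), which did not pass (limma adjusted p = 0.908). Slc16a3, the export carrier of glycolytic cells, and Slc16a7, a high-affinity carrier, were above 0 in siRNA 1 only. Bsg, the chaperone that brings Slc16a1 to the membrane, stood at 15.9, 18.3, 13.9 and 16.3 FPKM, and the groups overlapped.

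In the oxidative branch of the pentose phosphate pathway, G6pdx was the leading gene outside siRNA 2. G6pdx catalyses the first, NADPH-producing reaction. It stood at 26.9, 19.0, 23.2 and 0.879 FPKM, so siRNA 1 lay between the controls and siRNA 2 far below all others, at about 10.8 fragments against 233 or more. Pgd, the second NADPH-producing enzyme, stood at 10.5, 2.82, 5.13 and 15.5 FPKM. Pgls, the lactonase between them, stood at 2.87 and 0.560 FPKM in control 1 and siRNA 2, listed at or near 0 in the other 2 libraries. G6pdx overlaps Ikbkg on the opposite strand, as Tpi1 does Spsb2, Aldoa does Fam57b, Gapdh does Iffo1 and Hk2 does Gm17034, and whether the counting used strand is not stated.

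Taldo1, the transaldolase of the non-oxidative branch, had the smallest p of the members. It stood at 24.5, 12.5, 2.14 and 2.89 FPKM, from about 385, 235, 20.1 and 33.4 fragments, and the groups did not overlap. Taldo1 (ENSMUSG00000025503.4) lies at chr7:141392199-141402968 on the plus strand in mm10 and overlaps no other gene of GENCODE M21. Control libraries averaged 18.5 ± 8.45 FPKM (SD, n = 2), and those with the siRNA 2.52 ± 0.526 FPKM (SD, n = 2). The log2 difference was -2.41 (SE 0.93), with an unadjusted p of 0.0335 that did not pass over all genes (limma adjusted p = 0.745). It was -2.56 without siRNA 2 and -2.26 without siRNA 1, neither past the threshold. Tkt, the transketolase that shares substrates with it, stood at 2.03, 0, 1.19 and 0.435 FPKM, and the groups overlapped.

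Rpe, the ribulose phosphate epimerase, stood at 47.0, 27.1, 24.3 and 24.4 FPKM, with a log2 difference of -0.53 (SE 0.71, limma adjusted p = 0.865). Both siRNA values lay a little under the lower control. Rpe overlaps Kansl1l on the opposite strand. Rpia, the isomerase that yields ribose 5-phosphate, stood at 1.22, 3.05, 1.95 and 88.7 FPKM, from about 1039 fragments in siRNA 2. It was thus close to the controls in siRNA 1 and the highest member after Ldhb in siRNA 2.

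In the values as deposited, the shares of tested members called or not overlapping were close to those of all tested genes. Of the 37, 24 had at least 1 FPKM in 2 or more libraries and were tested. In limma 0 members passed at an adjusted p of 0.05 (smallest 0.745), and 0% of all 12390 genes tested did. An unadjusted p under 0.05 was found for 1 tested member (4.17%), Taldo1, and for 738 genes in all (5.96%). On simulated data with the spread of these libraries the same test recovered no planted change. The changes were planted only in genes more abundant than most members. The lack of calls therefore does not show that levels were alike. Among tested members, 7 (29.2%) were lower in each siRNA library than in either control, against 30.0% of all tested genes. They lay above both controls in 2 tested members (8.33%), against 8.60%. Those below were Slc2a8, Pfkl, Eno1, Bpgm, Slc16a1, Rpe and Taldo1, and those above Ldha and Slc2a1. Slc2a8, Pfkl and Eno1 passed the filter on low values through the controls alone, so they had to be lower with siRNA.

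The median log2 difference of the tested members was -0.19, and that of all tested genes -0.39. Scaling between libraries brought the latter to -0.084 to 0.012 and turned the sign of the former, to 0.14 to 0.31. The members below both controls then numbered 4 with TPM, TPM that leaves out mitochondrial genes and Rn18s-rs5, or median-of-ratios scaling, and 2 after quantile normalization, where 21.4%, 18.3%, 19.8% and 18.7% of all tested genes lay below. Those above numbered 4 in each, where 13.2%, 16.8%, 16.0% and 16.5% of all tested genes lay above. Taldo1 stayed below, and Ldha and Slc2a1 above, under all 4 of these scalings, whereas Bpgm, Rpe and Slc16a1 overlapped with the controls under each. Eno1 stayed below too, but it had passed the filter through the controls alone, so this adds no support. Its siRNA values came from about 2.00 and 0.325 fragments. Relative to all tested genes, the members' median lay 0.20 higher as deposited and 0.19 to 0.30 higher after scaling.

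For the tested members, single libraries of 1 group differed by amounts within the range seen across groups. Over all tested genes, the controls differed by less than any pair across groups. In the tested members the median absolute log2 difference was 1.05 between the siRNA libraries and 0.89 between the controls. Across groups it was 0.68 and 0.93 for siRNA 1 against each control, and 0.95 and 1.74 for siRNA 2. In all tested genes it was 1.28 between the siRNA libraries, 0.60 between the controls, 0.71 for siRNA 1 against either control, and 1.33 and 1.37 for siRNA 2. In 9 of the 24 tested members, 1 siRNA library exceeded the control mean and the other did not reach it. With siRNA 2 alone set against the controls, 3 members passed in limma (12.5%), against 11.9% of all genes: Hk2 higher (log2 difference 4.44, adjusted p = 0.0361), Rpia higher (4.90, adjusted p = 0.0229) and G6pdx lower (-3.65, adjusted p = 0.0302). That comparison takes the spread of the lone library from the controls. With siRNA 1 alone, 0 members and 0% of all genes passed. The log2 differences of Hk2, Rpia and G6pdx in that library were -0.28, -0.024 and 0.035, so the values of these 3 genes rest on siRNA 2.

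**Figure D3:**
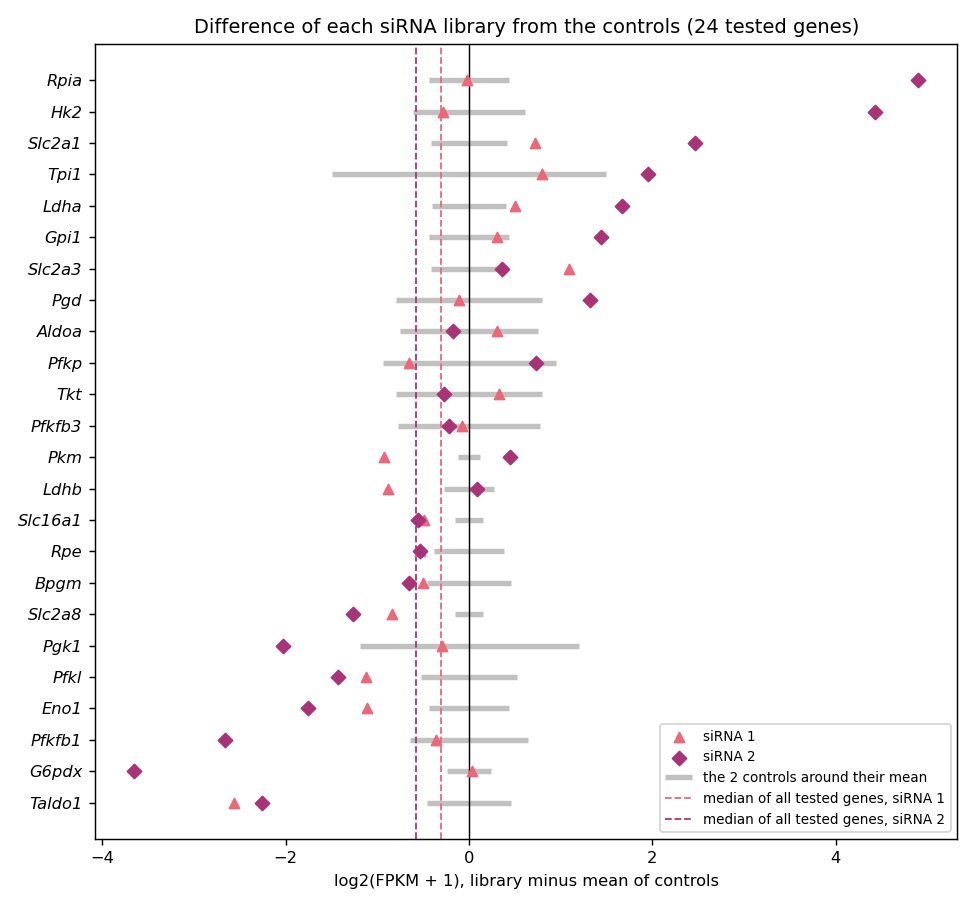
Difference of each siRNA library from the mean of the controls (x axis, log2(FPKM + 1)) for the 24 tested genes, ordered by their mean difference. Grey bars span the 2 controls and dashed lines give the median of all tested genes in each siRNA library (-0.30 and -0.57). Taldo1 is at -2.56 and -2.26 in the 2 libraries, whereas Rpia, Hk2 and G6pdx leave the controls in siRNA 2 only.

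Further isoforms of the same steps, 24 genes, were mostly low, but some exceeded the members. Ldhc, the lactate dehydrogenase of the germ line, stood at 15.9, 17.9, 21.3 and 22.4 FPKM, above Ldha in every library and far below Ldhb. Pgk2, the phosphoglycerate kinase of spermatogenic cells, stood at 3.42, 17.2, 8.19 and 0.0542 FPKM, above Pgk1 in every library. In siRNA 2 this rests on about 1 fragment of Pgk2, with Pgk1 listed at 0. Tktl1, a transketolase-like gene, stood at 13.8, 22.3, 17.9 and 2.91 FPKM, above Tkt in every library. The 11 sperm markers, which include Ldhc, Pgk2 and Gapdhs, summed to 30.7, 47.0, 50.9 and 25.8 FPKM. Prm2 stood at 5.34, 0.108, 12.3 and 0 FPKM and Tnp1 at 0, 2.00, 5.01 and 0 FPKM, while Akap4 was at 0 in all 4, and their part in the Ldhc and Pgk2 values was not tested. Of the 24 genes 9 were tested and 0 passed. Below both controls lay 2 of the tested genes (22.2%, against 30.0% of all tested genes), Pgam2, the muscle mutase, at 1.91, 4.57, 0 and 0 FPKM, and Pgam5, a mitochondrial phosphatase, at 4.12, 3.84, 0.209 and 0.189 FPKM. Both had an unadjusted p under that of Taldo1 (0.0274 and 0.0307, limma adjusted p = 0.745), and both passed the filter on low values through the controls alone, so they had to be lower with siRNA. Above both controls lay 3 of the 9 (against 8.60% of all tested genes): Ldhc, Adpgk and Tktl2. The log2 difference of Ldhc was 0.35. Adpgk, an ADP-dependent glucokinase, stood at 1.005, 1.499, 3.50 and 2.17 FPKM, and Tktl2 passed the filter through the siRNA libraries alone. The median log2 difference of the tested genes was -0.20.

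**Figure D4:**
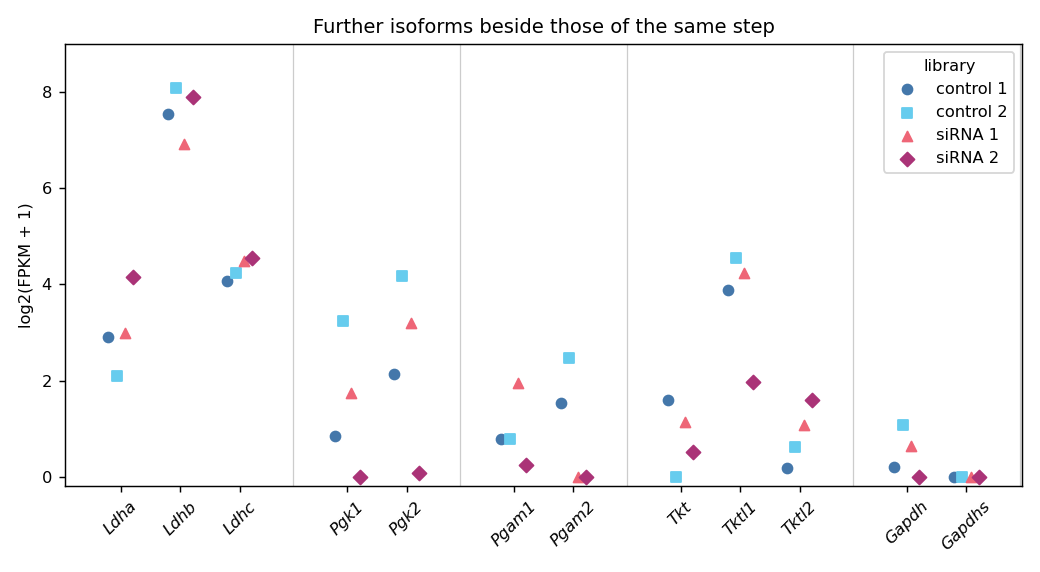
RNA level, log2(FPKM + 1), of further isoforms beside the members of the same step in the 4 libraries (symbols). Ldhc lies between Ldha and Ldhb, and Pgk2 and Tktl1 lie above Pgk1 and Tkt in each library, though Pgk2 is close to 0 in siRNA 2. Gapdhs is at 0 in all 4.

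Among 39 regulators and enzymes of branches, 26 were tested and 0 passed. Of these, 10 (38.5%, against 30.0% of all tested genes) were lower with siRNA in each library than in either control. Higher were 5 of the 26, Gpd2, Pgm1, Hif1a, Mlxip and Usf2, against 8.60% of all tested genes. Usf2 had passed the filter through the siRNA libraries alone. The median log2 difference of the tested genes of this list was -0.56. Tigar, a phosphatase that lowers the activator of phosphofructokinase, stood at 139, 152, 49.2 and 80.3 FPKM, lower in both siRNA libraries and far more abundant than any Pfkfb gene. Hif1a, the oxygen-regulated factor that drives many glycolytic genes, stood at 0.236, 2.62, 2.95 and 10.3 FPKM, above both controls with siRNA but by little in siRNA 1. Txnip, which limits glucose uptake, stood at 7.18, 5.60, 6.02 and 38.3 FPKM, with siRNA 1 between the controls. Pdk3, a kinase that shuts pyruvate dehydrogenase, stood at 26.2, 28.0, 19.1 and 2.59 FPKM, while Pdk4 was at 0 in every library. Embigin (Emb), another partner of the lactate carriers, stood at 14.5, 11.2, 9.97 and 2.31 FPKM.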

How the data were processed

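Each library has 1 table, in which the authors deposited FPKM per gene with its confidence bounds, per the file headers. Tools listed in the submitters' processing notes are STAR 2.7.3a, Trim Galore 0.6.5, Cufflinks 2.2.1, Cuffdiff 2.2.1 and SAMtools 1.7, with the build mm10. The gene annotation and the treatment of fragments that map to several places are not given in the sources used here. No counts were used. Fragments behind a value were derived from the upper bound: its distance from FPKM was read as 2 standard errors, and the squared ratio of FPKM to 1 standard error as the count. Such a number is too low for a gene with several isoforms or copies, and covers counting error only, after 18 and 15 rounds of PCR. Rows of 1 identifier were summed (50 identifiers, no member among them), and 2 genes with a failed estimate were left out. A gene was tested if 2 or more libraries reached 1 FPKM. The two-sided test was that of limma 3.58.1 under R 4.3.3, run with its trend option on values of log2(FPKM + 1), with Benjamini-Hochberg adjustment over all 12390 genes and a threshold of 0.05. Fold changes on this scale understate those of low genes. On simulated data the test recovered nearly all planted changes at a much smaller spread between replicates, and none at the spread of these libraries. Isoform shares were compared with exact permutation tests. Copies were sought with blastn 2.17.0 in GENCODE M21 transcripts, which matched 99.1% of identifiers. Every member is named. A log2 difference with its error is given for Uqcc3 and for members whose groups do not overlap, where the higher group averaged 5 FPKM or more, and further differences were named after their values were seen. Replicates were numbered in accession order. The names of the tables carry the numbers 2 and 3 in both groups, which no label explains, so no pairing was used. Alternatives were other pseudocounts, filters and scalings, no trend, the highest row of an identifier, leaving out each library, and adding copies. The members and lists were chosen with earlier results of these data known. Protein sequences were not used here.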

Additional observations from a re-analysis of the deposited data

How the results depend on the processing

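Over 14 alternatives 0 genes and 0 members passed in limma, except that 1477 genes and 3 members passed without siRNA replicate 1 (range over left-out libraries 0 to 1477 and 0 to 3). There Uqcc3 passed too (log2 difference -3.09). Uqcc3 and the members given with an error did not reverse: over the alternatives the log2 difference ranged from -2.87 to -1.60 for Taldo1, 0.50 to 1.67 for Ldha, -1.03 to -0.036 for Bpgm, -0.67 to -0.082 for Slc16a1 and -0.92 to -0.0022 for Rpe, with adjusted p of 0.0894 or more for these members. Of the 24 tested members, 12 changed sign in at least 1 alternative, each of them on leaving out 1 library and 6 also in another setting. These were Aldoa, G6pdx, Hk2, Ldhb, Pfkfb3, Pfkp, Pgd, Pgk1, Pkm, Rpia, Tkt and Tpi1. Without siRNA replicate 2, Hk2 went from 2.08 to -0.28, Rpia from 2.44 to -0.024 and G6pdx from -1.81 to 0.035. Ldhb went from -0.40 to as much as 0.20. Members below and above both controls numbered 3 and 1 with a filter at 5 FPKM (34.8% and 6.95% of all genes tested there), 4 and 4 with each TPM scaling (21.4% and 13.2%, or 18.3% and 16.8% without mitochondrial genes and Rn18s-rs5) and with median-of-ratios scaling (19.8% and 16.0%), and 2 and 4 with quantile normalization (18.7% and 16.5%). Leaving out 1 library gave 9 to 11 below (41.9% to 50.5% of all genes) and 3 to 8 above (16.4% to 32.0%), since fewer libraries have to be passed. The members' median was 0.0036 with no filter, 0.20 with TPM, 0.31 with TPM without mitochondrial genes and Rn18s-rs5, 0.14 with median-of-ratios scaling, 0.21 with quantile normalization, and -0.29 to -0.16 with 1 library left out. With copies added, the share of Bpgm differed between siRNA and control by 1.11 percentage points (-1.28 without copies) and the Gapdh step by -1.89 on the log2 scale (-0.33 without copies). The Gapdh sum with copies is almost wholly the FPKM of the copies. Leaving out 1 library, the share of Aldoa differed by 0 to 9.72 and that of Slc16a1 by -9.34 to 0 points. The remaining 193 values of counts, medians, shares and step sums moved by less than the spread between replicates or within 1.5 times. For shares and step sums, leaving out 1 of the 2 libraries of a group cannot move the value by more than this spread. Those values therefore do not show stability. With 1 library left out, the share of Hk2 differed by -18.6 to 30.6 points (6.02 with all libraries). The hexokinase step differed by -0.31 on the log2 scale without siRNA replicate 2 (1.85 with all libraries).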

Other observations

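Branches that leave glycolysis or stand beside it held some of the most abundant genes of the lists. Prps1, which makes the ribose-derived precursor of nucleotides, stood at 813, 1390, 602 and 168 FPKM in control 1, control 2, siRNA 1 and siRNA 2, lower in both siRNA libraries. Gfpt1, the first enzyme of the hexosamine branch, stood at 53.8, 55.1, 12.9 and 8.89 FPKM, and the groups did not overlap. Mpc2, a subunit of the mitochondrial pyruvate carrier, stood at 378, 477, 202 and 319 FPKM, lower in both siRNA libraries, while its partner Mpc1 stood at 159, 169, 197 and 11.8 FPKM. Got1, a cytosolic enzyme of the malate-aspartate shuttle, stood at 59.9, 65.7, 30.2 and 12.7 FPKM. None of these passed in limma over all genes, and their part in the levels of the glycolytic genes was not tested.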
